A study of Mus musculus with 6 samples.

Results

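The nuclear genes of the mitochondrial respiratory chain and ATP synthase were described in livers labelled as lacking the Hippo kinases Mst1 and Mst2 (Mst1/2 liver-dKO, dKO below) and in control livers. Members were the gene symbols of the forms Nduf with a letter A, B, C, S or V and a number, Sdha to Sdhd, Uqcr, Cox4 to Cox8, and Atp5, a rule on names that uses no measured value. The rule found 84 of 22068 symbols, of which 36 belong by name to complex I, 4 to complex II, 8 to complex III, 19 to complex IV and 17 to complex V. Polyadenylated RNA of whole liver had been sequenced in 3 dKO and 3 control libraries from C57BL/6 mice aged 6 weeks. The dKO mice were Mst1-/-; Mst2fl/fl; alb-Cre+/+ and the control mice Mst1-/-; Mst2fl/fl; alb-Cre-/-, so by the labels both groups were null for Mst1 and differed in Cre and, through it, in Mst2. The albumin promoter drives Cre in hepatocytes and in cells of the liver derived from albumin-expressing precursors, and recombination in single cells was not measured. Replicates are numbered in the labels, which do not say that each was a separate animal. A p sets the difference between the groups only against the spread of these samples within them, and that spread may be technical.

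The respiratory chain carries electrons from NADH (complex I) and succinate (complex II) through ubiquinone, complex III and cytochrome c to oxygen at complex IV. Complexes I, III and IV pump protons across the inner mitochondrial membrane, and complex V, the ATP synthase, uses the gradient to make ATP. In liver this supply of energy feeds gluconeogenesis, urea synthesis and bile secretion. Most subunits are encoded in the nucleus and imported, while a small core is encoded by mitochondrial DNA and was not analysed here.

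The values were read as RPKM, which scales reads to transcript length and to library size. RPKM summed to between 324034 and 352678 in dKO libraries and to between 364571 and 368246 in control libraries, and read totals estimated from the spacing of low values were 21.35 to 24.05 M in dKO and 16.9 to 24.5 M in control libraries. On the axis that carried most of the variance of all tested genes (67.3%), positions were -20.3, -19.2 and -49.0 for the dKO libraries and 35.7, 27.5 and 25.4 for the control libraries, so that dKO replicate 3 lay furthest out. Of 11062 genes that averaged 1 RPKM or more, 1965 rose and 240 fell at an adjusted p under 0.05 (limma on log2(RPKM + 1), Benjamini-Hochberg adjusted over all tested genes). After median-ratio scaling, which moved the median of all genes by 0.26 on the log2 scale, 826 rose and 662 fell. Stk3, the gene of Mst2, averaged 4.90 ± 0.57 RPKM in dKO and 5.54 ± 0.41 RPKM in control livers (SD, n = 3 each; limma adjusted p = 0.424). Stk4, the gene of Mst1, averaged 5.51 ± 0.51 RPKM in dKO and 4.95 ± 0.48 RPKM in control livers, although the labels give both groups as Mst1-/-. Values for whole genes do not resolve a deleted part, so these levels do not check either loss, and the groups are named by their labels.

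The summed RPKM of 12 hepatocyte markers ranged over 42833 to 51518 in dKO and 52519.5 to 67694 in control libraries. Of the 12, 0 were called higher and 4 lower (all tested genes 17.8% and 2.17%). The sum of 12 cholangiocyte and progenitor markers ranged over 382 to 1059 in dKO and 39.0 to 92.4 in control libraries. All 8 of these that were tested were called higher (all tested genes 17.8%). A test needed a mean of 1 RPKM over all 6 libraries, so markers low in control livers could enter it through their dKO values. This count may thus be partly set by that filter. Of 8 markers of striated muscle and brown fat, tissues rich in mitochondria, 0 reached the minimum for testing, Myh4, Mb and Ucp1 were listed at 0 in all libraries, and the sums were 0.37 to 0.65 RPKM in dKO and 0.18 to 0.72 RPKM in control libraries. Of the other marker lists, 1 of 8 macrophage markers was called higher (all tested genes 17.8%). None of the 9 stellate and fibroblast, 8 endothelial, 3 lymphocyte and neutrophil and 5 erythroid markers tested was called by limma. The part of the hepatocyte and cholangiocyte shifts in the results below was not tested. In whole tissue, fewer cells of a type and less RNA per cell cannot be told apart.

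The respiratory chain transcripts were among the more abundant of the liver, with a median level of 80.6 RPKM over the tested members, against 6.56 RPKM over all tested genes. Of the 84 members, 32 had a mean of at least 100 RPKM over the 6 libraries, 40 lay between 10 and 100, 6 between 1 and 10, and 6 under 1, so that 78 were tested. Together they held 3.11 ± 0.41% of the summed RPKM in dKO and 3.19 ± 0.24% in control libraries (SD, n = 3 each). The 6 under 1 RPKM were Ndufs5 and the isoforms Cox4i2, Cox6a2, Cox7b2, Cox8b and Cox8c, which are known from lung, muscle, heart, brown fat or testis. Of these, Cox7b2 and Cox8c were listed at 0 in every library. Atp5g2 just passed the minimum, with a mean of 1.03 RPKM. A few symbols that match the rule do not encode subunits. Cox4nb, a neighbour of Cox4i1, encodes a protein of the endoplasmic reticulum, and the products of Atp5s and Atp5sl are not counted among the subunits of the ATP synthase. Ndufa4 was named for complex I and is now counted with complex IV, and Cox7a2l acts in the assembly of supercomplexes.

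**Figure D1:**
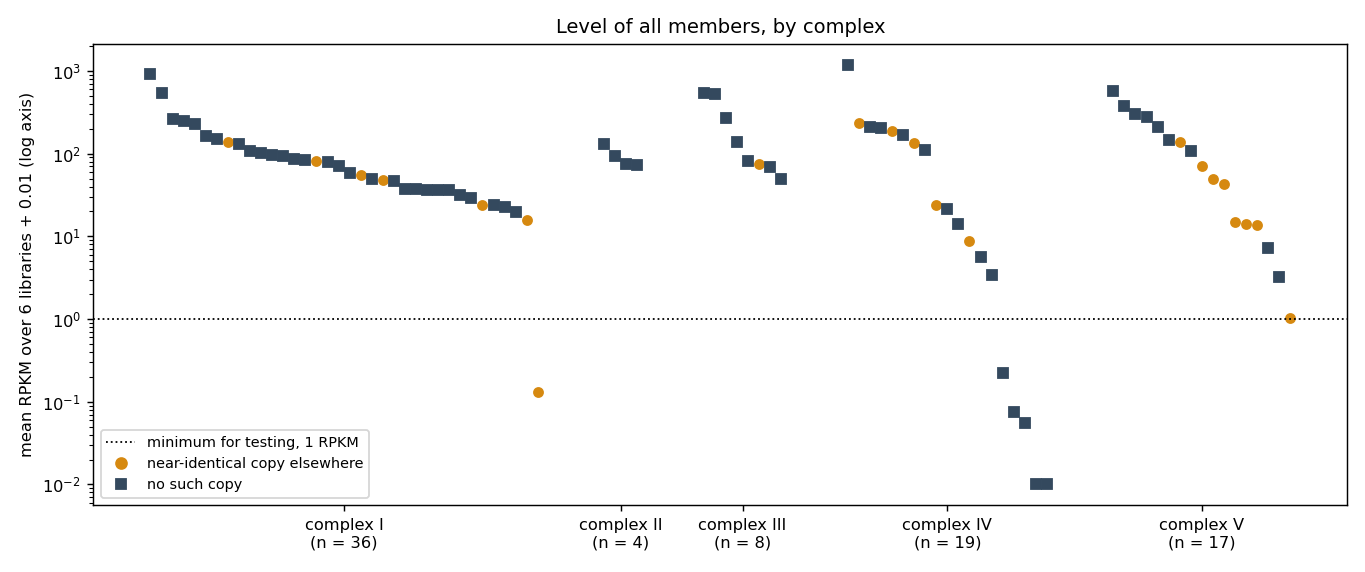
Mean level of each of the 84 members over the 6 libraries, in RPKM plus 0.01 on a log axis, sorted within each complex; circles mark members with a near-identical gene or pseudogene elsewhere in the genome, squares those without. Below the dotted line are 6 members under the minimum of 1 RPKM, 5 of them in complex IV.

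Few members were called. Ndufs6 of complex I rose in dKO livers, and Cox6c of complex IV and Atp5h of complex V fell. That is 1 of 78 tested members called higher (1.28%), beside 17.8% among all tested genes, and 2 of 78 called lower (2.56%), beside 2.17% among all tested genes. At an unadjusted p under 0.05, 7 members were higher and 7 lower, which is 8.97% each, beside 33% of all tested genes higher and 4.91% lower. As a group, the members had a median log2 change of -0.12, against 0.23 over all tested genes, a difference of -0.35, and 64 of 78 members (82.1%) lay below the median of all genes, below which 50% of all tested genes lie by definition. At levels of at least 10 RPKM the medians were -0.15 over 72 members and 0.15 over 3975 genes. Of the members, 60 of 78 lay within 0.5 of 0 in either direction on the log2 scale, beside 8131 of all 11062 tested genes. Above 0 lay 27 members and below it 51 (65.4%), beside 23.9% of all tested genes below 0.

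The position of the members relative to other genes kept its sign under every scaling tried, while its size moved. After median-ratio scaling the members' median was -0.43, against -0.03 for all genes, with 1 member called higher (all tested genes 7.47%) and 5 called lower (all tested genes 5.98%). The 5 were Atp5h, Cox6c, Ndufa7, Ndufs7 and Uqcrb. At an unadjusted p under 0.05 after that scaling, 3 members were higher (3.85%) and 26 lower (33.3%). Among all tested genes 15.3% were higher and 17.1% lower at that p, so the even split of the deposited values did not hold. Without dKO replicate 3 the members' median was 0.00, which is 0.17 below the median of all genes in that fit. Then 3 members, Cox7c, Ndufs6 and Uqcr10, were called higher (all tested genes 9.1%) and 1, Cox6c, was called lower (all tested genes 1.16%).

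In 8 of 78 members (10.3%) all 3 dKO values lay above all 3 control values, where 38.3% of all tested genes did. These were Atp5k, Atp5s, Cox4i1, Cox4nb, Cox7c, Ndufa2, Ndufs6 and Uqcrc1. In 11 members (14.1%) all dKO values lay below all control values, where 6.73% of all tested genes did. These were Atp5h, Atp5j2, Cox6c, Cox7a2, Cox7b, Ndufa10, Ndufb11, Ndufc1, Ndufv3, Uqcrb and Uqcrq.

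**Figure D2:**
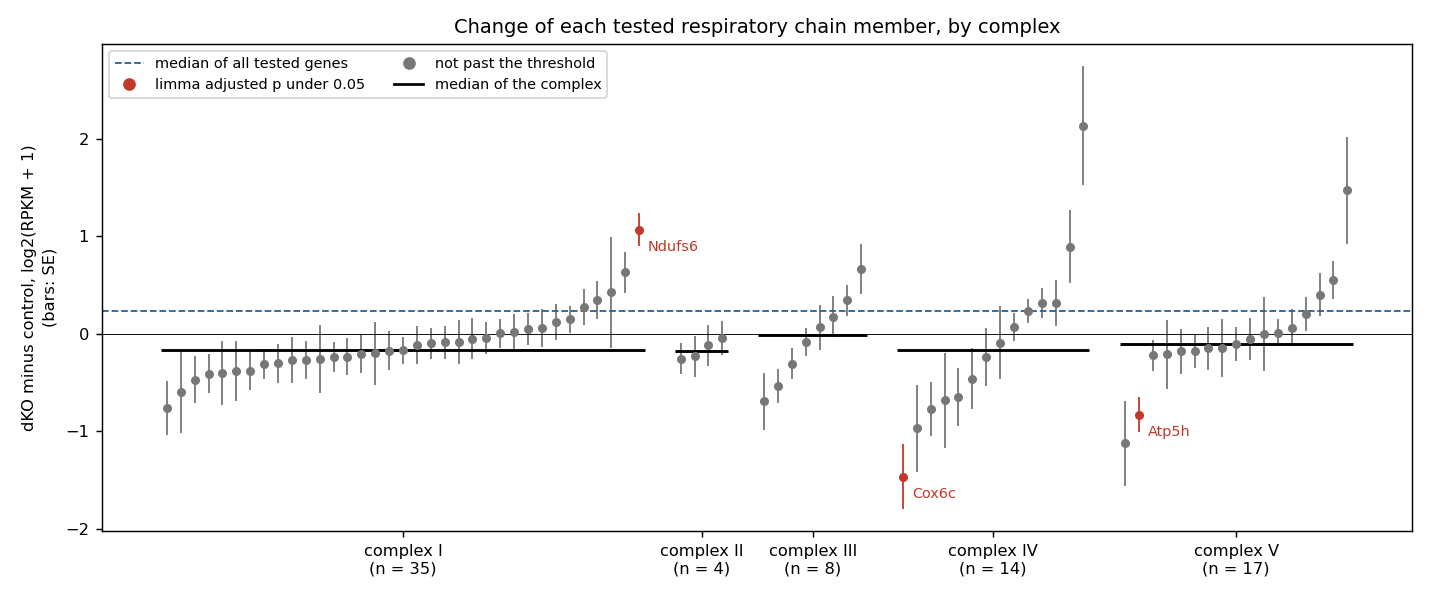
Change of each of the 78 tested members, given as the log2(RPKM + 1) of dKO less that of control, with its standard error, sorted within each complex; the black bars are the medians of the complexes and the dashed line is the median of all tested genes at 0.23. The medians lie between -0.18 and -0.01, below the dashed line, and the called members are Ndufs6, Cox6c and Atp5h.

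Complex I, the NADH dehydrogenase, had 1 of 35 tested members called higher and 0 called lower by limma, with 2 higher and 1 lower at an unadjusted p under 0.05. Among all tested genes the shares were 17.8% higher and 2.17% lower by limma, and 33% and 4.91% at that unadjusted p. The median log2 change of complex I was -0.17. Ndufs6, a zinc-binding accessory subunit of the matrix arm that is needed late in assembly, was at 173.9, 192.9 and 201.9 RPKM in the dKO libraries and at 95.01, 74.98 and 101.6 RPKM in the control libraries. All dKO values stood well above all control values, and both groups were tight. Its means of 189.6 ± 14.3 RPKM in dKO and 90.5 ± 13.8 RPKM in control livers (SD, n = 3 each) gave a ratio of 2.09 and a log2 change of 1.07 ± 0.17 (SE; limma adjusted p = 0.00596). It was called in 6 of 6 fits that left out a library, and over all alternatives with a test its adjusted p ranged from 0.00577 to 0.0456. Ndufs6 is the single member whose call held in all of them.

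None of the other complex I subunits was called as deposited. After median-ratio scaling 2 were called lower (5.71%, all tested genes 5.98%). These were Ndufa7 at -0.69 (limma adjusted p = 0.0400) and Ndufs7 at -0.48 (limma adjusted p = 0.0408). At an unadjusted p under 0.05 after that scaling, 1 of 35 was higher and 12 were lower (2.86% and 34.3%, all tested genes 15.3% and 17.1%). Ndufa4, the most abundant by this naming, was at 761.8, 996.9 and 594.2 RPKM in dKO and at 1004, 1258 and 950.7 RPKM in control libraries. The groups overlapped by a narrow margin, and its log2 change was -0.47 ± 0.24 (SE; limma adjusted p = 0.182). Ndufc1, a small accessory subunit of the membrane arm and the lowest of the complex by log2 change, was at 99.5, 97.1 and 49.6 RPKM in dKO and at 114.4, 163.1 and 128.2 RPKM in control libraries. The groups did not overlap, dKO replicate 3 was the lowest of all, and the log2 change was -0.76 ± 0.28 (SE; limma adjusted p = 0.0823). Several core subunits of the matrix arm, which passes electrons to ubiquinone, had small log2 changes as deposited. Ndufv1 was at 0.05, Ndufv2 at 0.00, Ndufs1 at -0.10, Ndufs3 at -0.20, Ndufs7 at -0.17 and Ndufs8 at -0.09, and their limma adjusted p ranged from 0.390 to 0.985. Ndufs5, another accessory subunit, was listed at 0.05, 0.03 and 0.13 RPKM in dKO and at 0.09, 0.30 and 0.13 RPKM in control libraries. A near-identical gene, BC002163, was at 68.8, 67.8 and 67.7 RPKM in dKO and at 46.9, 78.5 and 61.1 RPKM in control libraries. Those are levels like other complex I subunits, and the deposited values do not show from which of these genes the reads came.

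Complex II, succinate dehydrogenase, links the citric acid cycle to the chain. None of its 4 members was called by limma (all tested genes 17.8% higher and 2.17% lower), and 0 passed an unadjusted p of 0.05 (all tested genes 33% and 4.91%). All 4 log2 changes were slightly negative, from -0.25 to -0.04. Sdha, the catalytic flavoprotein and the most abundant of the 4, was at 145.1, 135.1 and 95.2 RPKM in dKO and at 112.7, 161.7 and 131.6 RPKM in control libraries. The groups overlapped, with a log2 change of -0.12 ± 0.21 (SE; limma adjusted p = 0.697). Sdhb, the iron-sulphur subunit, averaged 68.5 ± 8.57 RPKM in dKO and 82.2 ± 22.7 RPKM in control livers (SD, n = 3 each). The membrane anchors bounded the range, Sdhc at -0.25 (limma adjusted p = 0.268) and Sdhd at -0.04 (limma adjusted p = 0.874). After median-ratio scaling the 4 changes ran from -0.57 to -0.36. At an unadjusted p under 0.05, 0 were then higher and 2 lower (all tested genes 15.3% and 17.1%). Without dKO replicate 3, 2 of the 4 changes were above 0 and 2 below, with a median of -0.06.

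Complex III, the cytochrome bc1 complex, held 0 called members of 8 by limma (all tested genes 17.8% higher and 2.17% lower). At an unadjusted p under 0.05, 1 was higher and 2 were lower (all tested genes 33% and 4.91%). Its small accessory subunits lay furthest apart. Uqcr10 was at 811.8, 732.6 and 462.7 RPKM in dKO and at 404.7, 342.4 and 502.1 RPKM in control libraries. Values of dKO replicates 1 and 2 lay above every control value while dKO replicate 3 lay within the control range, and the log2 change was 0.66 ± 0.26 (SE; limma adjusted p = 0.0975). Without dKO replicate 3 the log2 change was 0.91 (limma adjusted p = 0.0347). Uqcrq was at 506.7, 502.1 and 239.4 RPKM in dKO and at 630.0, 579.9 and 709.9 RPKM in control libraries. All dKO values lay below all control values, dKO replicate 3 the furthest, and the log2 change was -0.70 ± 0.30 (SE; limma adjusted p = 0.123). Uqcrb, a subunit beside the ubiquinone site, was named after its values were seen, because it was called lower after median-ratio scaling. It averaged 60.8 ± 4.997 RPKM in dKO and 89.8 ± 17.5 RPKM in control livers, with limma adjusted p = 0.0590 as deposited and 0.0329 after that scaling. The core proteins went in opposite directions without passing the test, Uqcrc1 at 0.34 (limma adjusted p = 0.156) and Uqcrc2 at -0.31 (limma adjusted p = 0.187), and Uqcrfs1, the Rieske iron-sulphur protein, was at -0.09.

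Complex IV, cytochrome c oxidase, was the most variable, with log2 changes from -1.47 to 2.13 and 7 of 14 tested members within 0.5 of 0. By limma 1 was called lower (all tested genes 2.17%) and 0 higher (all tested genes 17.8%). In each direction 2 members passed an unadjusted p of 0.05 (all tested genes 33% higher and 4.91% lower). Cox6c, a small membrane subunit, was at 161.1, 168.1 and 66.8 RPKM in dKO and at 324.7, 359.7 and 333.0 RPKM in control libraries. The control libraries were tight and all dKO values were far below them, with dKO replicate 3 the lowest. Its means of 132 ± 56.6 RPKM in dKO and 339 ± 18.3 RPKM in control livers (SD, n = 3 each) gave a ratio of 0.389 and a log2 change of -1.47 ± 0.33 (SE; limma adjusted p = 0.0218). The call was lost without control replicate 1 (adjusted p = 0.0702), without control replicate 3 (adjusted p = 0.0612) and without the filter on low values (adjusted p = 0.05002). Without dKO replicate 3 the log2 change was -1.04 (limma adjusted p = 0.00898).

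Cox7c, another small membrane subunit, had the largest log2 change of all members and was not called. It was at 129.0, 174.6 and 650.7 RPKM in dKO and at 62.8, 38.8 and 68.3 RPKM in control libraries. All dKO values lay above all control values, but dKO replicate 3 was far above the other dKO libraries, and the log2 change was 2.13 ± 0.61 (SE; limma adjusted p = 0.0548). Without that library it was 1.43 (limma adjusted p = 0.0220), without dKO replicate 1 it was 2.59 (limma adjusted p = 0.0433), and the adjusted p over all alternatives ranged from 0.0220 to 0.136. Cox6a1, the isoform of subunit 6A found outside muscle and the most abundant member of all, was at 1422, 1324 and 674.4 RPKM in dKO and at 1682, 747.9 and 1229 RPKM in control libraries. The groups overlapped across nearly their whole range, with a log2 change of -0.09 ± 0.37 (SE; limma adjusted p = 0.865). Cox4i1, which encodes the liver form of the regulatory subunit 4, averaged 228 ± 15.4 RPKM in dKO and 183 ± 13.8 RPKM in control livers, a log2 change of 0.32 (limma adjusted p = 0.169).

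Complex V, the ATP synthase, had 1 of 17 tested members called lower and 0 called higher by limma (all tested genes 2.17% and 17.8%). In each direction 2 members passed an unadjusted p of 0.05 (all tested genes 33% higher and 4.91% lower). Atp5h, subunit d of the peripheral stalk, was at 10.67, 11.44 and 8.999 RPKM in dKO and at 14.87, 24.60 and 19.05 RPKM in control libraries. All dKO values lay below all control values, and the dKO libraries varied less than the control libraries. Its means of 10.4 ± 1.25 RPKM in dKO and 19.5 ± 4.88 RPKM in control livers (SD, n = 3 each) gave a ratio of 0.532 and a log2 change of -0.83 ± 0.18 (SE; limma adjusted p = 0.0179). The call was lost without dKO replicate 3 (adjusted p = 0.0637) and without control replicate 3 (adjusted p = 0.0531).

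The other members of the ATP synthase included both the catalytic head and the membrane part. Atp5e, the epsilon subunit of the central stalk and the most abundant of the complex, was at 706.0, 559.9 and 363.8 RPKM in dKO and at 495.2, 804.5 and 492.2 RPKM in control libraries. The groups overlapped, with a log2 change of -0.15 ± 0.30 (SE; limma adjusted p = 0.731). The alpha and beta subunits of the catalytic head, Atp5a1 and Atp5b, had log2 changes of 0.20 (limma adjusted p = 0.416) and -0.10 (limma adjusted p = 0.682). Atp5k, subunit e, which takes part in dimer formation, was at 8.45, 14.9 and 44.4 RPKM in dKO and at 5.53, 4.90 and 7.36 RPKM in control libraries. All dKO values lay above all control values and again dKO replicate 3 was far above the others, with a log2 change of 1.47 ± 0.55 (SE; limma adjusted p = 0.104). Atp5j2, subunit f of the membrane part, was at 255.6, 216.2 and 82.1 RPKM in dKO and at 284.0, 513.7 and 324.4 RPKM in control libraries. All dKO values lay below all control values with dKO replicate 3 the lowest, and the log2 change was -1.12 ± 0.44 (SE; limma adjusted p = 0.104).

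**Figure D3:**
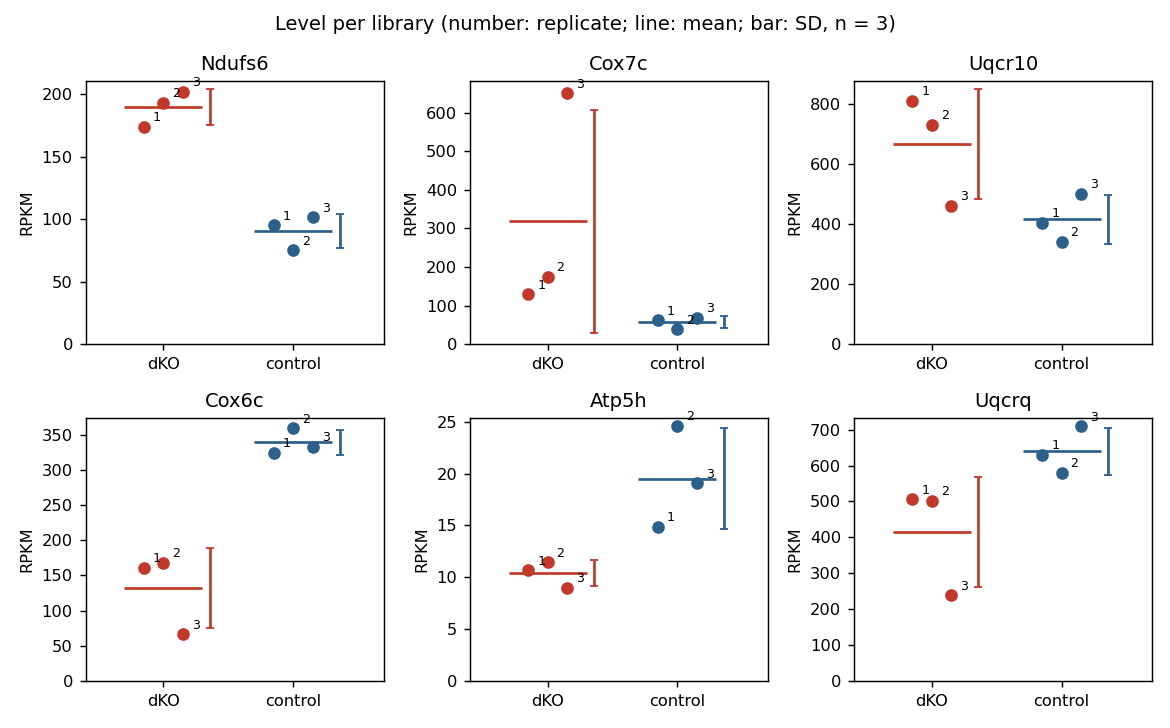
Level in RPKM of Ndufs6, Cox7c, Uqcr10, Cox6c, Atp5h and Uqcrq in each library, dKO left and control right, with the replicate number beside each point, a line at the mean and a bar of 1 SD (n = 3). Ndufs6 lies between 173.9 and 201.9 RPKM in dKO and between 74.98 and 101.6 RPKM in control libraries, while dKO replicate 3 lies away from dKO replicates 1 and 2 in Cox7c, Uqcr10, Cox6c and Uqcrq.

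The promoters of the called members Ndufs6 and Atp5h, and of Cox7c, the member with the largest log2 change, are printed to show which of them hold motifs of factors known to act on these genes. NRF1, the ETS factor GABPA and YY1 are activators of many nuclear genes of the respiratory chain. The sequences are RefSeq promoters of mouse build GRCm38.p6, which span the gene start, for Ndufs6 at chr13:73328433-73328732, Atp5h at chr11:115419870-115420169 and Cox7c at chr13:86046746-86047045, all on the minus strand and written 5′ to 3′ along the gene. Capitals mark matches, on either strand, to the NRF1 motif (GCGCA and GCGC with 1 base of any kind between them), the ETS motif CCGGAAG and the YY1 motif AANATGGCG, where N is any base. Cox6c had no promoter in the table.
Ndufs6: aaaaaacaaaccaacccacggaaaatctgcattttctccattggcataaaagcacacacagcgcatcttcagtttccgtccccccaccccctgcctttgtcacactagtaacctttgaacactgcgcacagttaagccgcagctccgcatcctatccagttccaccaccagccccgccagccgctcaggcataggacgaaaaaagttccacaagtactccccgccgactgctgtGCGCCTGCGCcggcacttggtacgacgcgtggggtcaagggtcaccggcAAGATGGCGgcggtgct
Atp5h: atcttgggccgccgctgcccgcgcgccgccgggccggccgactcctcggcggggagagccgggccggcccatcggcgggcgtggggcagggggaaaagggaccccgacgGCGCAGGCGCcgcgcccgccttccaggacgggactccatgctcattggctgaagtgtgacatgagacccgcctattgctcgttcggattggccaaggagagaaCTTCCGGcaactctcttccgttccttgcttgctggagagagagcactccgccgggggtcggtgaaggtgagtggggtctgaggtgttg
Cox7c: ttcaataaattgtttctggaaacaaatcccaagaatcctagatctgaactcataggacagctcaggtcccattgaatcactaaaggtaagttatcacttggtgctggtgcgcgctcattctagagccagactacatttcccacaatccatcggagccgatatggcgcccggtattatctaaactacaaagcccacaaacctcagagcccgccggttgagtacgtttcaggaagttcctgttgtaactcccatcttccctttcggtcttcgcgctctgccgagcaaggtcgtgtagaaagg
The Ndufs6 promoter held an NRF1 and a YY1 match, the Atp5h promoter an NRF1 and an ETS match, and the Cox7c promoter none of the letters searched. Only exact matches were searched, so stretches that differ from a motif by a base were not marked or counted.

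Across the 69 members with a promoter in the table, 38 (55.1%) held at least 1 of these motifs, against 20.9% of the promoters of 17491 protein-coding genes and 15.9% of all 27025 promoters. The NRF1 motif was in 17 members (24.6%) and in 7.17% of coding promoters, the ETS motif in 16 members (23.2%) and in 12.9%, and the YY1 motif in 11 members (15.9%) and in 3.64%. Complex V had a match in 12 of 16 promoters and complex I in 17 of 32, while complex IV had one in 3 of 13, complex III in 3 of 5 and complex II in 3 of 3. The median log2 change was -0.12 over 37 tested members with a match and -0.11 over 29 without. By motif it was -0.05 with and -0.16 without an NRF1 match, -0.12 with and -0.12 without an ETS match, and -0.17 with and -0.11 without a YY1 match. In each of these classes the members ranged over more than their medians differed, from -1.12 to 1.47 with any match and from -0.97 to 2.13 without.

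The shares of paralogous isoforms are given with exact tests, which for 3 against 3 libraries cannot give a p under 0.1, so no share could pass. The genes Atp5g1, Atp5g2 and Atp5g3 encode precursors of the same c subunit, the rotor ring of the ATP synthase. Atp5g3 supplied 80.7 ± 0.38% of their summed RPKM in dKO and 80.3 ± 2.96% in control livers (SD, n = 3 each; exact permutation test, two-sided, p = 1). Atp5g1 supplied 18.8 ± 0.63% in dKO and 19.4 ± 2.98% in control livers (exact p = 0.8). Atp5g2 supplied 0.568 ± 0.311% in dKO and 0.263 ± 0.0180% in control livers (exact p = 0.1). Cox7a1, the isoform of muscle and brown fat, made up 8.45 ± 2.19% of the sum of Cox7a1 and Cox7a2 in dKO and 7.18 ± 1.08% in control livers (exact p = 0.5). Adjusted over the 4 shares tested, the p was 0.4 for Atp5g2 and 1 for the other shares. Cox6b2, known from testis, was at 5.04 ± 0.84% of the sum with Cox6b1 in dKO and 5.03 ± 2.56% in control livers, and was described without a test. Cox4i2 and Cox6a2 lay below 1 RPKM, and their shares were 0.0877 ± 0.0769% and 0.00537 ± 0.00931% in dKO and 0.121 ± 0.0650% and 0.00269 ± 0.00466% in control livers.

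Summed by complex, the groups overlapped everywhere, and the differences were within the spread between libraries. Complex I summed to 3944 ± 670 RPKM in dKO and 4468 ± 651 RPKM in control livers (SD, n = 3 each). Complex II summed to 352 ± 40.3 RPKM in dKO and 393 ± 78.1 RPKM in control livers, and complex III to 1771 ± 369 RPKM in dKO and 1729 ± 67.8 RPKM in control livers. Complex IV summed to 2391 ± 319 RPKM in dKO and 2626 ± 305 RPKM in control livers, and complex V to 2204 ± 443 RPKM in dKO and 2484 ± 402 RPKM in control livers. In each complex dKO replicate 3 had the lowest sum of the 6 libraries.

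**Figure D4:**
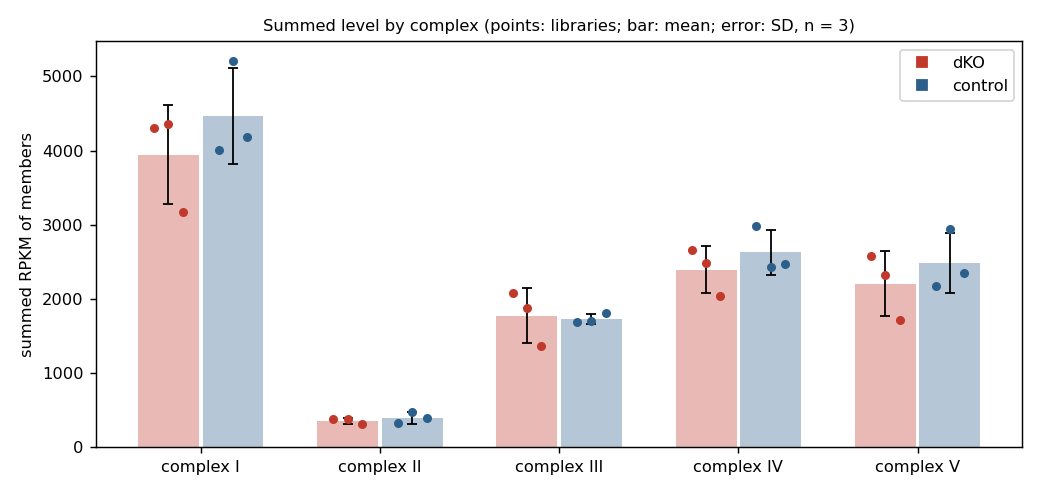
Summed RPKM of the members of each complex in every library (points), with the mean (bar, from 0) and the SD (error bar, n = 3), dKO left and control right. The largest sums are those of complex I, 3944 RPKM in dKO and 4468 RPKM in control livers on average, and the points of both groups overlap in all 5 complexes.

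The libraries of a group differed in the members as a whole. Set against the other 2 libraries of its group, the median member was 0.25, 0.06 and -0.31 on the log2 scale in dKO replicates 1, 2 and 3, and -0.26, 0.39 and -0.10 in control replicates 1, 2 and 3. The same medians over all tested genes were -0.04, -0.12 and 0.16 in the dKO libraries and -0.08, 0.08 and -0.01 in the control libraries. In dKO replicate 3, 59 of 78 members were below the other dKO libraries, while the median of all genes was above them. Cell type markers moved with that library too. Its hepatocyte marker sum was 42833 RPKM, against 51088 and 51518 RPKM in dKO replicates 1 and 2, and its cholangiocyte and progenitor sum was 1059 RPKM, against 538 and 382 RPKM. Its stellate and fibroblast sum was 317 RPKM, against 182 and 184 RPKM, and the part of these markers in the members' values was not tested. Set against the other 2 libraries of its group, the median member thus moved by up to 0.39. Measured from the group mean, the members' median had an SD of 0.21 between libraries, and of 0.23 relative to all genes. Between the groups, the members' median change was -0.12, or -0.35 relative to all genes. These measures are not alike and were not tested against each other.

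**Figure D5:**
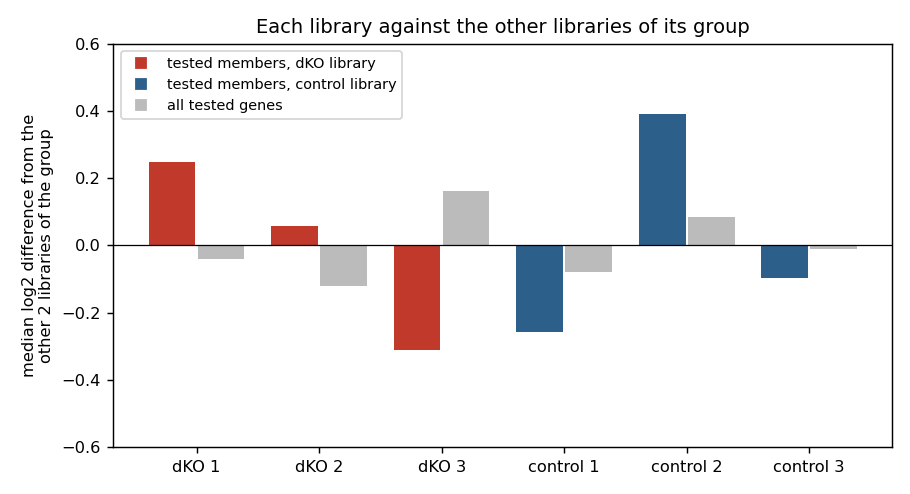
Median log2 difference of each library from the other 2 libraries of its group, over the 78 tested members (coloured) and over all tested genes (grey). The members range from -0.31 in dKO replicate 3 to 0.39 in control replicate 2, and all genes from -0.12 to 0.16.

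The members are short transcripts, with a median length of 863 nt in the tested members, against 2861 nt in all tested genes with a length. Their median SD within groups was 0.28 on the log2 scale, against 0.19 for all tested genes. It was 0.34 in the 31 members under 700 nt and 0.26 in the 47 longer ones. Among all genes of at least 10 RPKM it was 0.36 under 700 nt (165 genes) and 0.18 above (3718 genes). The short members were thus close to other short transcripts, and the longer members were above other transcripts of 700 nt or more. Ndufs6, Cox6c, Atp5h, Cox7c and Atp5k were all under 700 nt, and the part of transcript length in their values was not tested.

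Many members also have near-identical copies. A transcript of another locus with at least 95% identity over at least 200 nt was found for 21 of 84 members, and for 19 of these at least 1 copy was a pseudogene. All 3 called members were among them, so 3 of 20 tested members with a copy (1 higher, 2 lower) and 0 of 58 tested members without one were called, beside 17.8% higher and 2.17% lower among all tested genes. Ndufs6 had 1 copy, Cox6c 2 and Atp5h 4, and the files list none of these. Cox7c had 1 copy, Gm10012, at 1.57 ± 0.355 RPKM in dKO and 1.07 ± 0.743 RPKM in control livers. How reads shared with a copy were assigned was not given in the sources used here, so the values of these members are uncertain to that extent. Each library held 78 to 107 values above 0 and below 0.0001 RPKM, while 1 read on 700 nt is worth 0.058 to 0.085 RPKM. Read as RPKM, such values are less than 1 read, and whether reads of the members were split was not tested. Ndufs6 also overlaps exons of Mrpl36 on the opposite strand, which was at 20.8 ± 1.27 RPKM in dKO and 19.8 ± 2.20 RPKM in control livers. Cox6c overlaps Vps13b in the same way, at 5.45 ± 0.578 RPKM in dKO and 3.87 ± 0.213 RPKM in control livers. The use of strand in counting was not stated, and 26 members have such an overlap.

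Assembly factors of the chain were read against 17.8% higher and 2.17% lower calls among all tested genes, and 33% and 4.91% at an unadjusted p under 0.05. None of 10 factors for complex I, 3 for complex II, 4 for complex III and 3 for complex V was called by limma, with 1 higher and 1 lower of complex I, and 1 lower of complex II, at an unadjusted p under 0.05. Of 11 factors for complex IV, 1 was called higher and 1 lower. Cox19, known in yeast from copper handling, rose to 26.7 ± 4.62 RPKM in dKO livers, against 14.9 ± 2.08 RPKM in control livers (SD, n = 3 each; log2 change 0.80; limma adjusted p = 0.0131). Cox16, known in yeast and human cells from the assembly of the enzyme, fell to 6.97 ± 1.59 RPKM in dKO livers, against 11.1 ± 1.76 RPKM in control livers (log2 change -0.62; limma adjusted p = 0.0432). The Cox19 call was lost without control replicate 1 (adjusted p = 0.0548) and after median-ratio scaling (adjusted p = 0.0582). The Cox16 call was kept without dKO replicate 1 and lost without each of the other 5 libraries, with adjusted p from 0.0673 to 0.108. After median-ratio scaling Cox16 was at -0.90 (limma adjusted p = 0.0290). With that scaling 0 of the 11 factors for complex IV were called higher and 2 lower (all tested genes 7.47% and 5.98%). Of the 3 for complex II, 1 was called lower, and of those for complexes I, III and V, 0 were called. Of 6 proteins of the chain outside the symbol rule, 1 was called higher and 0 lower. This was 2010107E04Rik, listed by RefSeq as Atp5mpl, a small membrane protein of the ATP synthase, with 695 ± 65.3 RPKM in dKO and 435 ± 51.2 RPKM in control livers (log2 change 0.68; limma adjusted p = 0.0344). After median-ratio scaling its adjusted p was 0.259, and without each library other than control replicate 2 it ranged from 0.0557 to 0.125. Cyc1, cytochrome c1 of complex III, had a log2 change of -0.21 (limma adjusted p = 0.394).

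Among 17 electron carriers and enzymes that feed the chain, 1 was called lower and 0 higher, beside 2.17% lower and 17.8% higher among all tested genes. Gpd2, the mitochondrial glycerol-3-phosphate dehydrogenase that passes electrons to ubiquinone, fell to 9.01 ± 1.21 RPKM in dKO livers, against 18.5 ± 3.58 RPKM in control livers (SD, n = 3 each; log2 change -0.95; limma adjusted p = 0.00818). Cycs, cytochrome c itself, had a log2 change of -0.32 (limma adjusted p = 0.427). Of 18 genes of the citric acid cycle and pyruvate dehydrogenase, 1 was called higher and 0 lower, against the same shares, with 2 higher and 3 lower at an unadjusted p under 0.05 (all tested genes 33% and 4.91%). Idh2, the NADP-dependent isocitrate dehydrogenase of mitochondria, rose to 116 ± 3.65 RPKM in dKO livers, against 47.0 ± 10.2 RPKM in control livers (log2 change 1.30; limma adjusted p = 0.00346). After median-ratio scaling 1 of the 18 was called higher and 4 lower (all tested genes 7.47% and 5.98%).

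The regulators of mitochondrial biogenesis and of mitochondrial DNA expression had 0 of 17 members called by limma (all tested genes 17.8% higher and 2.17% lower). At an unadjusted p under 0.05, 1 was higher and 2 were lower (all tested genes 33% and 4.91%), and after median-ratio scaling 0 were called higher and 2 lower (all tested genes 7.47% and 5.98%). The coactivator Ppargc1a averaged 4.22 ± 0.469 RPKM in dKO and 3.38 ± 0.560 RPKM in control livers (SD, n = 3 each; log2 change 0.26; limma adjusted p = 0.230). The factors whose motifs were searched had log2 changes of 0.20 for Nrf1 (limma adjusted p = 0.453) and 0.05 for Gabpa (limma adjusted p = 0.788), both negative after median-ratio scaling, and -0.0068 for Yy1 (limma adjusted p = 0.970). Esrra, a nuclear receptor that acts with Ppargc1a, was at 0.44 (limma adjusted p = 0.0858), and Tfam, which packages mitochondrial DNA, at -0.03 (limma adjusted p = 0.878).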

How the data were processed

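The series held 6 libraries of polyadenylated liver RNA, 3 dKO and 3 control, and all 6 files were used. The authors aligned and counted the reads and deposited values that were read here as RPKM. Their genome build, per the submitters' processing notes, was mm9. The sources used here do not name the aligner, the counter or the annotation, or say whether strand was used. The RPKM unit itself was read from the deposited values: between 75.1% and 79.9% of 239 to 400 low values per library lay within 0.15 of a whole read, at a spacing chosen to fit them best, so the unit was not tested. At the estimated depths 1 read on a transcript of 700 nt is worth 0.058 to 0.085 RPKM.

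Values were taken as log2(RPKM + 1), which understates the changes of low genes. Genes averaging 1 RPKM or more (11062) entered a single limma fit (limma 3.58.1, R 4.3.3) with trend and robust moderation and no block. Same-numbered replicates did not deviate together, with correlations of -0.08, -0.10 and -0.01. Shares of isoforms were compared with exact two-sided permutation tests. Near-identical copies came from blastn 2.17.0 against GENCODE M21 transcripts, which are on GRCm38 and served for lengths and names of all 84 members. Promoters came from RefSeq on GRCm38.p6, with no coordinates taken from mm9. Figures used Python 3.11.15 and matplotlib 3.10.9.

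The rule for the members reads symbols only, but it, the gene lists and the rule for named genes were chosen with earlier results of these data known. Named with values by that rule were the most abundant, the called and the extreme members of each complex, isoforms restricted to other tissues, the Atp5g paralogues, the called genes of smallest p of each list and a few fixed regulators. Other genes were given with values outside the rule. Among them were Ndufv1, Ndufv2, Ndufs1, Ndufs3, Ndufs7, Ndufs8, Sdhb, Uqcrb, Uqcrc1, Uqcrc2, Uqcrfs1, Cox4i1, Atp5a1, Atp5b, Yy1 and Usmg5. Alternatives were another pseudocount (0.1), no filter, no robust moderation, a replicate block, 4 scalings, leaving out each library, a stricter threshold of 0.01, and removal of the 3 symbols that are not subunits, which was added after seeing the data.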

Additional observations from a re-analysis of the deposited data

How the results depend on the processing

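With 1 member called higher and 2 called lower as the starting point, the count called higher was 2 without robust moderation, 2 with the replicate block, which added Cox7c, and 2 with quantile normalization, which added Uqcr10. With 1 library left out it ranged from 1 to 3, reaching 3 without dKO replicate 1, without dKO replicate 3 and without control replicate 2. Over all tested genes 1153, 988 and 1992 were called higher in those fits, in that order. The count called lower was 1 without the filter, which ended the call of Cox6c (adjusted p = 0.05002), 5 after median-ratio scaling, 5 after upper-quartile scaling and 0 at an adjusted p under 0.01. With 1 library left out it ranged from 0, without control replicate 3, to 2. Without control replicate 3, 116 of all tested genes were called lower. Over all tested genes, 1965 rose and 240 fell, against 826 and 662 after median-ratio scaling, 899 and 561 after upper-quartile scaling, 744 and 547 after quantile normalization, 490 and 49 at an adjusted p under 0.01, and 145 lower without the filter. With the replicate block they were 1513 and 202. With 1 library left out, as few as 763 rose and 90 fell, both without control replicate 1. The members' median of -0.12 was -0.43 after median-ratio scaling and -0.38 after upper-quartile scaling, and its difference from all genes, -0.35, was -0.11 after quantile normalization and ranged from -0.46 to -0.17 with 1 library left out. Without the 3 symbols that are not subunits the counts stayed at 1 and 2 and the median was -0.15. The cause of these moves was not tested.

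Of the 78 tested members, 15 turned sign after median-ratio scaling and 28 with at least 1 library left out, and 0 of these were called members. Among those named in the text, median-ratio scaling gave -0.11 for Atp5a1, -0.26 for Ndufv1, -0.31 for Ndufv2 and -0.0019 for Cox4i1. With 1 library left out Ndufs3 ranged from -0.39 to 0.18, Ndufs1 from -0.21 to 0.0031, Ndufs8 from -0.19 to 0.065, Ndufv1 from -0.065 to 0.19, Ndufv2 from -0.080 to 0.13, Uqcrfs1 from -0.18 to 0.013 and Yy1 from -0.082 to 0.050. Of the genes named by rule, none of them called, after median-ratio scaling Stk4 was at -0.14, Gabpa at -0.25 and Nrf1 at -0.054. After upper-quartile scaling Stk4 was at -0.10, Gabpa at -0.21 and Nrf1 at -0.016. After quantile normalization Stk4 was at -0.16, Gabpa at -0.19, Nrf1 at -0.13, Ppargc1a at -0.068, Atp5e at 0.087, Cox6a1 at 0.24 and Sdhd at 0.027. With 1 library left out, the log2 change ranged from -0.36 to 0.11 for Atp5e, from -0.33 to 0.033 for Atp5g3, from -0.41 to 0.25 for Cox6a1, from -0.24 to 0.064 for Sdha and from -0.19 to 0.099 for Sdhd. It ranged from -0.53 to 0.017 for Cycs, from -0.0088 to 0.10 for Gabpa and from -0.091 to 0.064 for Tfam.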

Other observations

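Carriers of the inner mitochondrial membrane exchange the substrates of the chain with the cytosol, and some of them were called. Of 15 carriers and pores, a list chosen after the values of these data had been seen, 2 were called higher and 2 lower by limma, beside 17.8% higher and 2.17% lower in the whole set of tested genes. Slc25a5, an ADP/ATP carrier that exports the ATP made by complex V, rose to 360 ± 122 RPKM in dKO livers, against 175 ± 33.7 RPKM in control livers (SD, n = 3 each; log2 change 1.00; limma adjusted p = 0.0322). Its paralogue Slc25a4, known from heart and muscle, rose to 29.1 ± 12.3 RPKM in dKO livers, against 11.9 ± 4.88 RPKM in control livers (log2 change 1.21; limma adjusted p = 0.0432). Slc25a22, a glutamate carrier, fell to 27.1 ± 7.35 RPKM in dKO livers, against 53.7 ± 9.42 RPKM in control livers (log2 change -0.98; limma adjusted p = 0.0205). Slc25a25, an ATP-Mg and phosphate carrier, fell to 30.5 ± 11.4 RPKM in dKO livers, against 61.0 ± 17.5 RPKM in control livers (log2 change -1.003; limma adjusted p = 0.0489). After median-ratio scaling 0 of the 15 were called higher and 3 lower (all tested genes 7.47% and 5.98%), with Slc25a5 at a log2 change of 0.69 (adjusted p = 0.189) and Slc25a4 at 0.91 (adjusted p = 0.0632). The Slc25a5 call was kept without dKO replicate 3 and lost without each other library, with adjusted p from 0.0501 to 0.111. The Slc25a22 call was lost without control replicate 1 (adjusted p = 0.0784) and without control replicate 3 (adjusted p = 0.0660). With 1 library left out the Slc25a4 call was kept in 1 of 6 fits and the Slc25a25 call in 2 of 6, with adjusted p of up to 0.135 and 0.131.

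Of 15 genes of protein import, chaperones and cristae, chosen in the same way, 0 were called in either direction by limma and 0 passed an unadjusted p of 0.05, beside 33% higher and 4.91% lower at that p among all tested genes. After median-ratio scaling 0 were called higher and 3 lower (all tested genes 7.47% and 5.98%). Their median log2 change was 0.04. Usmg5, a small membrane protein of the ATP synthase outside the symbol rule, spread the most among the genes of the chain named here. It was at 858.9, 426.5 and 117.8 RPKM in dKO and at 583.7, 1365.9 and 681.6 RPKM in control libraries, with a log2 change of -1.21 ± 0.74 (SE; limma adjusted p = 0.271).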
